A study of Mus musculus with 4 samples.

Results

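The data were poly(A) RNA-seq counts of 10 genes that write, guard or remove DNA methylation in mouse embryonic stem cells, taken by gene symbol from the 24428 genes of the deposited tables. They were the DNA methyltransferase genes Dnmt1, Dnmt3a and Dnmt3b, the catalytically inactive relative Dnmt3l, the oxidase genes Tet1, Tet2 and Tet3, and the cofactor genes Uhrf1, Zfp57 and Tdg. The cells were of 129SvEv background, grown with serum and LIF, and carried a floxed Smarca4 gene together with a Cre recombinase that tamoxifen activates (Smarca4-CreER). Smarca4 encodes BRG1, an ATPase of the mSWI/SNF (BAF) chromatin remodelling complexes. One group received ethanol, the solvent (n = 2), and the other 0.8 uM 4-hydroxytamoxifen (n = 2), both for 48 h with collection at 72 h. Both groups carry the floxed alleles and the Cre, and a tamoxifen-treated culture without floxed alleles was not analysed here, so deletion, drug and Cre activity cannot be told apart. The labels do not say whether the libraries are separate cultures or how many clones were used, and p-values therefore measure the spread between these libraries, which may be technical.

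Methylation of cytosine in CpG dinucleotides is set on unmethylated DNA by DNMT3A and DNMT3B, with DNMT3L as a stimulating partner, and is copied to the new strand after replication by DNMT1, which UHRF1 brings to half-methylated sites. TET enzymes oxidise the methyl group, and the glycosylase TDG can then excise the oxidised base. In mouse stem cells TET1 and TET2 are the TET enzymes known to act, TET3 is known mainly from the egg and from differentiated cells, and ZFP57 keeps imprinted regions methylated.

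The comparison asks how these transcripts differ between the tamoxifen and ethanol groups, collected at 72 h. Tet1 fell 2.28-fold, Dnmt3a fell 1.75-fold and Tet3 rose 2.49-fold with tamoxifen. Dnmt1, Uhrf1, Dnmt3b, Dnmt3l, Tet2 and Zfp57 did not pass the test. Tdg had too few reads to be tested. So 3 of 9 tested genes passed, 1 higher and 2 lower (edgeR quasi-likelihood test, Benjamini-Hochberg adjusted p under 0.05 over all genes), where 44.5% of all 14479 genes tested did so, 21.5% higher and 22.9% lower. The share is no larger than that background.

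The RefSeq windows (build GRCm38.p6, 250 bases before to 50 after a start) of the 3 genes that passed are shown so that their composition can be seen beside their changes. Capitals mark GGGCGG or its reverse complement CCGCCC, the letters of a GC box. The Tet1 window is chr10:62887275-62887574 (minus strand), that of Tet3 is chr6:83441629-83441928 (minus strand), and that of Dnmt3a is chr12:3891494-3891793 (plus strand), the most downstream of 3 starts in the table.
Tet1: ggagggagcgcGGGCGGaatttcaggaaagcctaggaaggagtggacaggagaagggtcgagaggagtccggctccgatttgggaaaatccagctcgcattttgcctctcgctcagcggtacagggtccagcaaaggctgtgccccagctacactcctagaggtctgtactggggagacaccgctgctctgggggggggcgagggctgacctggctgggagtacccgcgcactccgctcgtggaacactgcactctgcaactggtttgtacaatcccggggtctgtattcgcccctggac
Tet3: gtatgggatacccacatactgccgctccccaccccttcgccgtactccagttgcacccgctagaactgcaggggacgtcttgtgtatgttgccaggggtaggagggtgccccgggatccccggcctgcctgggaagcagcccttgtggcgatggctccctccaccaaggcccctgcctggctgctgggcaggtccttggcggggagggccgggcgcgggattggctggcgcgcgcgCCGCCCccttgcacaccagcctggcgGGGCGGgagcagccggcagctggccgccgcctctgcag
Dnmt3a: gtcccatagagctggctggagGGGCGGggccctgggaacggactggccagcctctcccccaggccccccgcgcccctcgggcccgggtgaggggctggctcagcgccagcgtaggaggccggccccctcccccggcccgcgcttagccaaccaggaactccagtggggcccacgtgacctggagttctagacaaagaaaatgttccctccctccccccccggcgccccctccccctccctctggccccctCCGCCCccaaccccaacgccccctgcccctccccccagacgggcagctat
The window of Tet1 held 17 CpG dinucleotides and 1 GC box, that of Tet3 22 and 2, and the printed Dnmt3a window 18 and 2. The 2 upstream Dnmt3a windows, not printed, overlap each other and held 46 and 47 CpG dinucleotides and 6 and 7 GC boxes. The median over 32851 windows of the same length was 7 CpG, and 35.7% of them held a GC box. Each of these windows lay above that median, those of the genes that fell as well as that of the gene that rose. Windows of genes that did not pass lay on both sides of it, with 57 CpG for Tet2 and 30 for Dnmt3b but 3 to 6 for Dnmt3l. All 10 genes had at least 1 window in the table.

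Smarca4 was checked first. With ethanol it had 5042 and 10649 reads and with tamoxifen 968 and 1226, which left 18.6% of the ethanol level (log2 fold change -2.43 ± 0.17, SE; edgeR adjusted p = 1.08e-05). Reads in genes ranged from 13458463 to 27086142 per library. Reads that the counting tool assigned to no feature made up 51.7 and 40.8% with ethanol and 37.6 and 35.0% with tamoxifen. The annotation and strand setting are not given, so such reads need not lie outside genes. The groups differed in this measure without overlap, and its part in the results was not tested. All 12 embryonic stem cell markers examined passed the filter on low counts, and their summed level was 5740 to 5818 CPM (a gene's reads relative to all reads in genes of its library, scaled by TMM factors) with ethanol and 5581 to 5891 with tamoxifen. The sums hold opposite moves, with means of 1002 and then 1449 CPM for Dppa5a and 1580 and then 1100 for Tdgf1. Klf4 and Dppa5a rose and Tdgf1, Fgf4 and Tcl1 fell among the 12 markers. With the GC correction described below 3 of the 12 were higher and 5 lower, with Klf4 and Tdgf1 no longer called. Fibroblast markers rose in 13 of 18 tested cases (12 with GC correction) and none fell (edgeR). At an unadjusted p under 0.05, 14 were higher and 0 lower, and by DESeq2 13 and 0. Their summed level was 2027 to 2315 CPM with ethanol and 3102 to 3259 with tamoxifen. Fn1, not called, held the largest part of it, at 1536 and 1358 CPM with ethanol and 1729 and 1831 with tamoxifen. Col1a1 was at 80.7 and 52.0 CPM with ethanol and 182 and 182 with tamoxifen, Acta2 at 162 and 139 and then 353 and 363, Dcn at 1.17 and 0.998 and then 1.70 and 1.63, and Lum at 0.261 and 0 and then 0.425 and 0.224. Trophectoderm markers rose in 4 of 6 tested cases (1 with GC correction). Primitive endoderm markers rose in 2 of 10 and fell in 1 (1 and 3 with GC correction). Primed epiblast markers rose in 3 of 8 and fell in 1 (3 and 2). Beside these marker counts, 21.5% of all tested genes were higher and 22.9% lower, or 9.86 and 10.1% with GC correction. The part of other cells in the results below was not tested. In these bulk samples fewer expressing cells and less RNA per cell cannot be told apart.

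**Figure D1:**
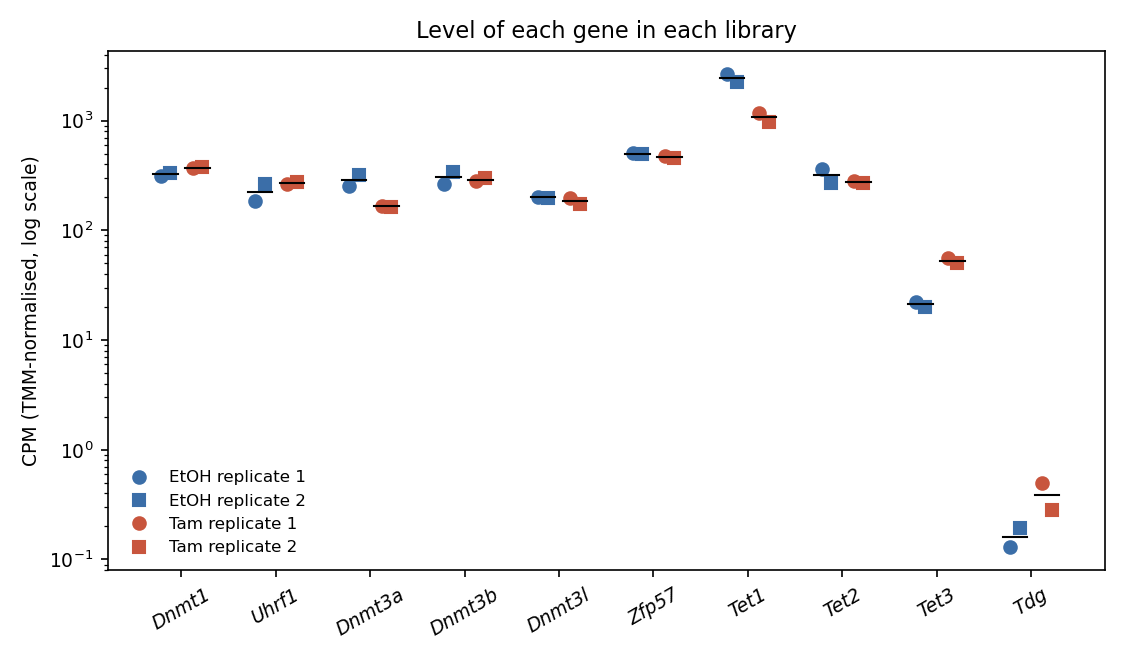
Level of the 10 genes in each of the 4 libraries, in CPM on a log axis, with circles and squares for replicates 1 and 2, blue for ethanol, red for tamoxifen and a bar for the mean of the 2 libraries. The tamoxifen points of Tet1 (967 and 1179 CPM) and Dnmt3a (162 and 168) lie below the ethanol points, those of Tet3 (50.0 and 55.8) lie above them, and Tdg is below 1 CPM throughout.

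Dnmt1, the maintenance methyltransferase, was at 316 and 332 CPM with ethanol and at 369 and 379 CPM with tamoxifen. Both tamoxifen libraries lay above both ethanol libraries, by a small step. The log2 fold change was 0.21 ± 0.15 (SE) and did not pass the test (edgeR adjusted p = 0.272). Uhrf1, the cofactor that reads half-methylated DNA, was at 183 and 265 CPM with ethanol and at 267 and 276 CPM with tamoxifen. The lower ethanol library stood apart from the other 3, which were close to each other. The log2 fold change of Uhrf1 was 0.27 ± 0.18 (edgeR adjusted p = 0.230), and it passed only where ethanol replicate 2 was left out (0.57; 0.45 with the GC correction described below) and with the replicate number as a block (0.30, edgeR adjusted p = 0.0395). The count of Uhrf1 is uncertain, since 26.2% of the 36-base stretches of its longest transcript also occur in other genes, 24.0% in the copy Gm5648. The ratio of Uhrf1 to Dnmt1 reads was 0.581 and 0.797 with ethanol and 0.722 and 0.729 with tamoxifen, so the groups overlapped (exact permutation test, 2-sided, p = 1.0; the smallest p these 4 libraries allow is 0.333).

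Dnmt3a, a de novo methyltransferase, was at 256 and 323 CPM with ethanol, against 168 and 162 CPM with tamoxifen. The groups did not overlap, and the tamoxifen libraries were nearly equal. The fall was 0.81 ± 0.16 on the log2 scale (log2 fold change -0.81, SE; edgeR adjusted p = 0.00200), to 57.1% of the ethanol level. Dnmt3a is known to be read from an upstream and a downstream start, which give a long and a short protein, and counts per gene do not separate them. It remained called in all 20 alternatives, between -1.30 and -0.62.

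Dnmt3b, the other de novo enzyme, was at 265 and 342 CPM with ethanol and at 282 and 299 CPM with tamoxifen. Both tamoxifen values fell between the ethanol values. Its log2 fold change was -0.06 ± 0.16 (SE; edgeR adjusted p = 0.777), an interval of -0.39 to 0.27 for 2 SE either way. It passed as lower only with GC correction and without ethanol replicate 1 (-0.42). Of the 36-base stretches of its longest transcript, 14.3% also occur in the close relative Dnmt3c, so its count is uncertain too.

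Dnmt3l, the partner without catalytic activity, was at 202 and 198 CPM with ethanol and at 197 and 175 CPM with tamoxifen. The tamoxifen libraries were the lower ones, 1 of them by less than 1 CPM. The log2 fold change was -0.10 ± 0.15 (edgeR adjusted p = 0.596). Zfp57, the imprint guardian, was at 508 and 494 CPM with ethanol and at 476 and 455 CPM with tamoxifen. The 4 values were close, the tamoxifen pair below the ethanol pair (log2 fold change -0.11 ± 0.15, edgeR adjusted p = 0.590). Scaling by total counts instead, which shifts the median of all genes to 0.12, turned Dnmt3b, Dnmt3l and Zfp57 to small positive values (0.062, 0.024 and 0.021).

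Reads of Dnmt3a per read of Dnmt3b numbered 0.965 and 0.943 with ethanol, against 0.597 and 0.541 with tamoxifen. Such a ratio does not depend on how libraries are scaled. It fell 1.68-fold with no overlap between groups (exact permutation test, 2-sided, p = 0.333, the smallest these libraries allow). The ratio of Dnmt3l to Dnmt3b overlapped between groups, at 0.760 and 0.578 with ethanol and 0.698 and 0.586 with tamoxifen (exact permutation p = 1.0).

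Tet1, the most abundant TET gene, had 40594 and 58411 reads with ethanol, against 16668 and 17250 with tamoxifen, or 2645 and 2243 against 1179 and 967 CPM. Every tamoxifen value was below every ethanol value by far more than the replicates differed. The log2 fold change was -1.19 ± 0.17 (SE; edgeR adjusted p = 0.000326), which left 43.9% of the ethanol level. Among all genes tested, 4.54% had a log2 fold change as low or lower. Tet1 remained called in all 20 alternatives, between -1.34 and -0.74.

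Tet2, which lacks the CXXC DNA-binding domain of the other TET proteins, was at 366 and 273 CPM with ethanol and at 282 and 270 CPM with tamoxifen. Only ethanol replicate 1 stood higher, and the groups overlapped. Its log2 fold change was -0.21 ± 0.17 (edgeR adjusted p = 0.327). The direction rested on that library, with 0.019 without ethanol replicate 1 and a called -0.40 without ethanol replicate 2, and it turned with GC correction (0.18).

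Tet3 was the least abundant TET gene, with 345 and 523 reads in the libraries from ethanol and 789 and 893 in those from tamoxifen. In CPM these were 22.5 and 20.1 against 55.8 and 50.0. The tamoxifen libraries stood well above the ethanol libraries, and the replicates of each group were close. The log2 fold change was 1.32 ± 0.15 (SE; edgeR adjusted p = 0.000123), and 2.68% of all genes tested had one as high or higher. Tet3 did not pass in 1 of 20 alternatives, with GC correction and without tamoxifen replicate 1 together (0.69, edgeR adjusted p = 0.0672).

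Within libraries the balance of TET transcripts shifted. Reads of Tet1 per read of Tet2 numbered 7.22 and 8.22 with ethanol and 4.18 and 3.59 with tamoxifen, a 1.99-fold fall without overlap. Reads of Tet3 per read of Tet2 numbered 0.0614 and 0.0736 with ethanol and 0.198 and 0.186 with tamoxifen, a 2.85-fold rise without overlap. Both had an exact permutation p of 0.333 (2-sided), the smallest possible here. With the GC trend removed, by the median GC content of each gene's transcripts, the log2 change of the Tet3 to Tet2 ratio was 0.58 in place of 1.51. The ratio was not computed by the longest transcripts, where Tet3 alone had a log2 fold change of 1.12 and Tet2 0.13. By the median GC content these were 0.78 and 0.18.

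Tdg had 2 and 5 reads with ethanol, against 7 and 5 with tamoxifen, with 95% exact Poisson intervals that all overlap (from 0.242 to 7.22 for the lowest and 2.81 to 14.4 for the highest, counting error only). It did not pass the filter on low counts, and without the filter its log2 fold change was 1.12 ± 0.83 (edgeR adjusted p = 0.329). Of the 36-base stretches of its longest transcript, 73.0% also occur in other genes, 55.4% in the pseudogene Tdg-ps. How far this lowered the count was not tested, and these reads give no level for intact Tdg transcript.

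Per kilobase of the longest transcript, the order with ethanol was Zfp57 (193 ± 3.74 CPM per kilobase, SD, n = 2), Tet1 (170 ± 19.8), Dnmt3l (110 ± 1.5), Dnmt3b (70.3 ± 12.6), Uhrf1 (62.5 ± 16.0), Dnmt1 (55.2 ± 1.96), Tet2 (34.8 ± 7.19), Dnmt3a (29.9 ± 4.88) and Tet3 (1.95 ± 0.155). The ethanol values of Uhrf1 overlapped those of Dnmt3b and Dnmt1, its neighbours in that order, and those of Tet2 overlapped those of Dnmt3a. Zfp57 (196 and 190 CPM per kilobase) lay above Tet1 (184 and 156) in both ethanol libraries. With tamoxifen Tet1 dropped from rank 2 to rank 4, at 74.7 ± 10.5 CPM per kilobase. Its tamoxifen values overlapped those of Uhrf1 (75.7 ± 1.83) and Dnmt3b (67.3 ± 2.79). Tet3 stayed the lowest of the 9 at 4.85 ± 0.375 in spite of its rise. With the median transcript length in place of the longest, Tet1 stood at 4310 CPM per kilobase with ethanol, since most of its annotated transcripts are short fragments, so the order depends on the transcript models.

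The 3 TET genes together reached 226 and 188 CPM per kilobase with ethanol, against 118 and 101 with tamoxifen. Tet1 made up 81.4 and 83.2% of this sum with ethanol and 69.6 and 66.5% with tamoxifen, and Tet3 rose from 0.912 and 0.981% to 4.34 and 4.53%. The loss of Tet1 transcript was thus much larger in amount than the gain of Tet3. The 3 Dnmt3 genes summed to 198 and 221 CPM per kilobase with ethanol and 191 and 182 with tamoxifen, of which Dnmt3a made up 13.3 and 15.1% and then 9.11 and 9.18%.

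**Figure D2:**
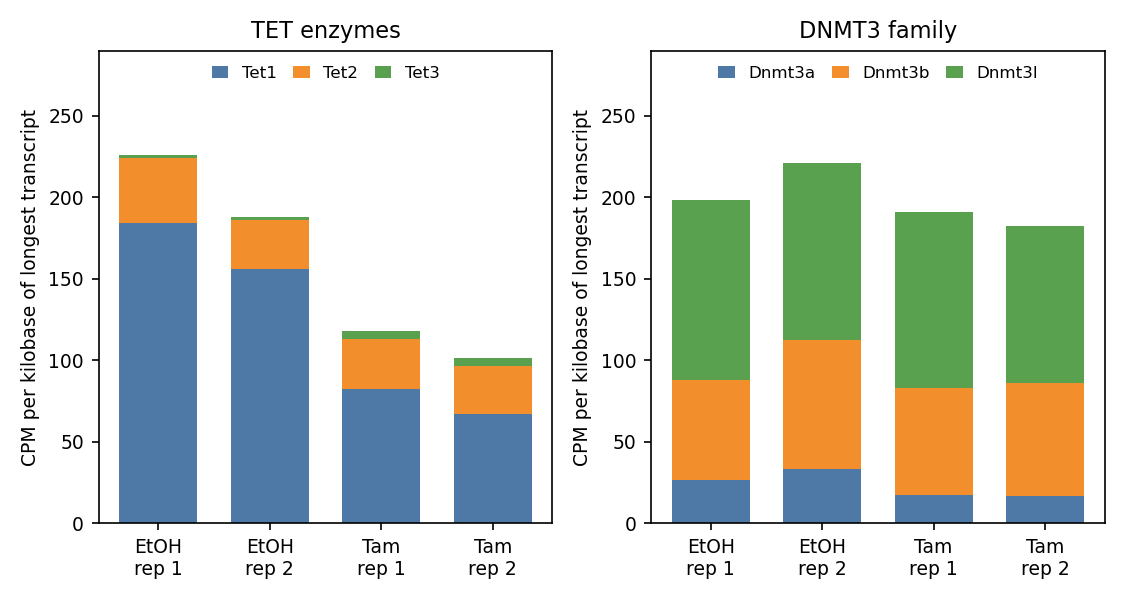
Stacked levels of the 3 TET genes (left) and the 3 Dnmt3 genes (right) in each library, in CPM per kilobase of the longest transcript, with 1 bar per library. The TET bars drop from 226 and 188 with ethanol to 118 and 101 with tamoxifen, mostly through Tet1, while the Dnmt3 bars stay between 182 and 221.

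In these libraries genes rich in G and C tended to be higher with tamoxifen (Spearman correlation of log2 fold change with transcript GC content 0.638 across genes, which are not independent), so each value was also computed with the GC trend of every library removed. The median GC content of tested genes was 51.2%. Tet3 (59.1%) and Dnmt3a (55.1%) lay above it and Tet1 (49.9%) below it. With GC content taken as the median of a gene's transcripts, the change of Dnmt3a was opposite to the trend. The corrected fall was larger (log2 fold change -1.09 ± 0.17, SE, edgeR adjusted p = 0.000912). The corrected value was -1.09 ± 0.16 for Tet1 (edgeR adjusted p = 0.000727) and 0.78 ± 0.15 for Tet3 (edgeR adjusted p = 0.00337). Again 1 gene was higher and 2 lower, where the corrected test called 19.9% of all genes, 9.86% higher and 10.1% lower.

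The GC content given to a gene depends on its transcript models. The longest Tet1 transcript had 43.7%, the longest Tet3 transcript 53.4% and the longest Dnmt3a transcript 51.9%. With the longest transcripts, an alternative chosen after seeing the data, the fall of Tet1 shrank to -0.74 ± 0.17 (edgeR adjusted p = 0.00760) and the rise of Tet3 was 1.12 ± 0.15. Dnmt3a was at -0.90 ± 0.16, nearer to its uncorrected value of -0.81. All 3 remained called, where this correction called 20.1% of all genes, 10.1% higher and 9.98% lower.

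**Figure D3:**
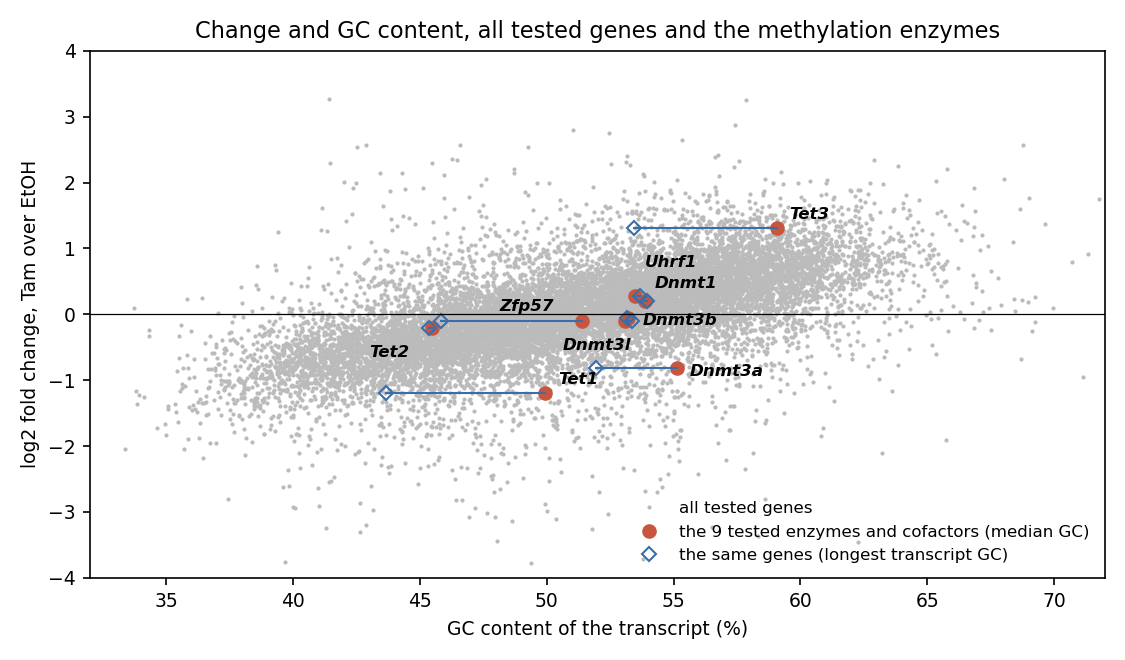
Log2 fold change (tamoxifen over ethanol) against transcript GC content in percent, with a grey dot for each tested gene that had a GC value (8 lie outside the axes), red circles for the 9 tested enzymes and cofactors at their median GC content and blue diamonds at that of the longest transcript. Dnmt3a lies low in the cloud at 55.1% GC whereas Tet3 lies high in it at 59.1%. Lines between the symbols show that Tet1 moves from 49.9 to 43.7% and Dnmt3a from 55.1 to 51.9%.

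**Figure D4:**
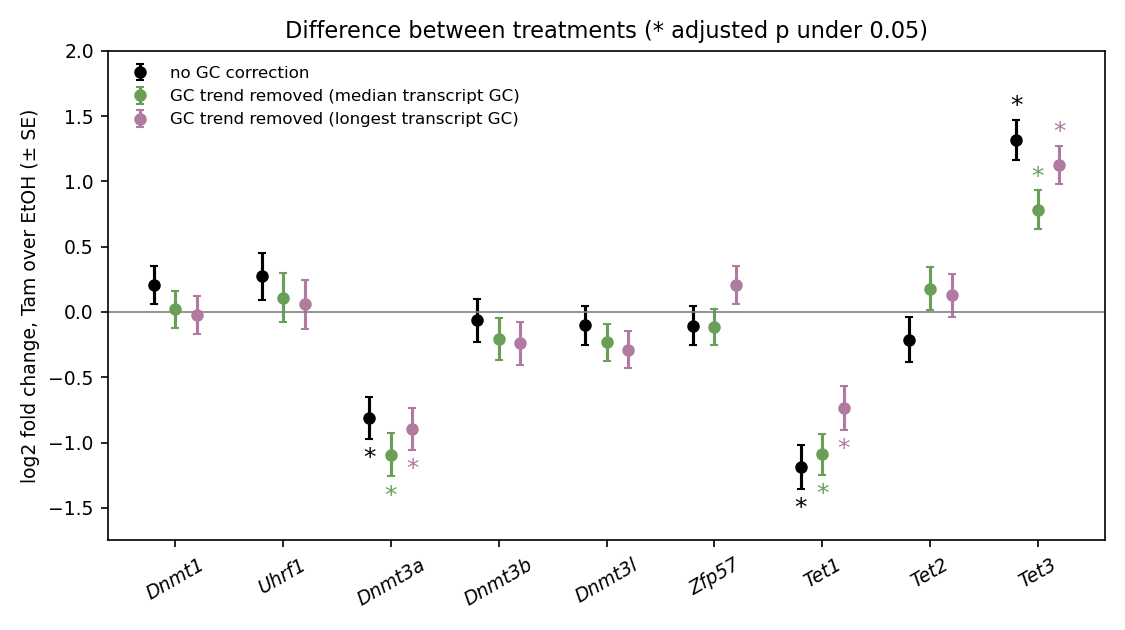
Log2 fold change with its standard error for the 9 tested genes, without GC correction (black), with correction by median GC content (green) and with correction by the GC content of the longest transcript (purple), where a star marks an adjusted p under 0.05. Dnmt3a, Tet1 and Tet3 carry a star in all 3 forms and the other 6 genes in none.

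The libraries of the groups did not overlap for 7 of the 9 tested genes, and the same held for 74.0% of all genes tested.

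Other genes of DNA methylation and its removal were taken from 9 lists. Of 105 tested genes, each counted once, 18 were higher and 22 lower with tamoxifen, and the median log2 fold change was -0.04, against -0.01 over all genes. With GC correction 10 were higher and 7 lower. These shares were below or near those of all genes, so the lists are described by their genes.

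Of 10 partners of maintenance methylation, 1 rose and 1 fell. Hells, the remodeler LSH that maintenance of methylation in heterochromatin needs, fell from 607 ± 123 to 323 ± 11.4 CPM (SD, n = 2; log2 fold change -0.91), a call that ended with GC correction (-0.13). Dmap1, which encodes a DNMT1-binding protein, had 0.40 (0.093, not called with GC correction, and not called by DESeq2). With GC correction 1 gene passed, the UHRF1 relative Uhrf2 (0.58, against 0.30 before), named after its value was seen. None of 8 histone modifiers and factors that steer de novo methylation passed (edgeR; 0 also at an unadjusted p under 0.05 and by DESeq2 and limma voom), among them Prdm14, a repressor of de novo methyltransferase genes in stem cells (0.37 ± 0.17, SE, edgeR adjusted p = 0.101; called at 0.50 with total counts and at 0.50 without ethanol replicate 1, and with GC correction at 0.53 without that library and at 0.43 with the replicate block). With GC correction 1 of these 8 was higher, the H3K36 methyltransferase gene Whsc1 (0.64, against 0.10 before), named after its value was seen.

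Of 15 heterochromatin and imprint protection factors, 2 rose and 6 fell, against 2 and 1 with GC correction. Trim28, the corepressor that ZFP57 recruits, rose from 675 ± 145 to 1065 ± 63.1 CPM (log2 fold change 0.66), a call lost with GC correction (0.10) and without tamoxifen replicate 2 (0.60). The genes of the ATRX-DAXX histone H3.3 chaperone complex moved in opposite directions. Atrx fell by 0.98 on the log2 scale (log2 fold change -0.98, or -0.51 with GC correction, and -0.25 and not called with the longest transcripts). Daxx rose by 0.77 (0.46 with GC correction, and 0.37 and not called with the longest transcripts). Arid4b, an imprint regulator, had -0.92 (-0.22, not called with GC correction). Dppa3, whose product protects maternal methylation in the fertilised egg, was at 55.5 ± 5.09 and 59.3 ± 9.11 CPM (log2 fold change 0.09, edgeR adjusted p = 0.656). It was called higher with GC correction (0.53, but 0.44 and not called by the longest transcripts).

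Among 10 genes of methyl-CpG binding proteins and their relatives, 3 rose and 3 fell. After GC correction 0 rose and 1 fell (edgeR, 0 and 1 also at an unadjusted p under 0.05). The latter was Mbd2 (-1.07, against -0.49 before), named after its value was seen. Zbtb4 (1.01 log2) and Mbd3 (0.67), a subunit of the NuRD complex, rose and Zbtb33, which encodes Kaiso, fell (-1.0), and none of these 3 was called with GC correction (0.36, -0.070 and -0.31). By the longest transcripts Zbtb4 stayed called (0.88) and Mbd3 (-0.10) and Zbtb33 (-0.24) were not.

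Base excision repair, the route that completes removal of oxidised cytosine, had 6 of 19 genes higher and 1 lower, and 1 and 1 with GC correction. Neil3, a glycosylase gene, fell from 24.7 ± 5.33 to 7.51 ± 0.083 CPM (log2 fold change -1.71 ± 0.19, SE; -1.33 with GC correction) and remained called in all 20 alternatives. Mpg, the alkyladenine glycosylase gene, rose by 0.87 (0.73 with GC correction) and Xrcc1, the repair scaffold, by 0.78 (0.23, not called). Mpg was not called in 2 of 20 alternatives. Of 7 cytidine deaminase and GADD45 genes, 2 rose and 1 fell, against 1 and 1 with GC correction. Apobec3 fell from 188 ± 19.7 to 85.2 ± 23.9 CPM (log2 fold change -1.14, or -0.94 with GC correction) and was not called in 1 of 20 alternatives. Gadd45a rose by 0.60 (0.63 with GC correction, and 0.50 and not called without tamoxifen replicate 2). Gadd45g rose by 0.77 (0.19, not called with GC correction).

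Of 11 TET partners and enzymes of 2-oxoglutarate supply, 1 rose and 3 fell (1 and 2 with GC correction). Idh1, whose enzyme makes the 2-oxoglutarate that TET enzymes consume, fell from 96.3 ± 17.01 to 44.8 ± 5.57 CPM (log2 fold change -1.1, or -0.73 with GC correction). Idh1 was not called in 2 of 20 alternatives. The mitochondrial Idh2 rose by 0.56 (0.07, not called with GC correction). Ogt, the O-GlcNAc transferase that binds TET proteins, fell to a log2 fold change of -0.75 (-0.26, not called with GC correction). The calls with GC correction were Idh1 and, named after their values were seen, Cxxc5 (-0.86) as lower and Zfp281 (0.63) as higher. In the S-adenosylmethionine cycle, which supplies the methyl group, 2 of 9 tested genes fell. Mat2a and Mat2b, subunits of the synthetase, had -0.50 and -0.58 (-0.061 and -0.17, not called with GC correction).

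Of 16 tested germline genes that promoter methylation is known to keep silent, 2 rose and 5 fell, and with GC correction 3 rose and 1 fell. Those that rose were Tdrkh (0.45) and Piwil2 (0.49) without correction and Tdrkh (0.91), Mael (0.70) and Hormad1 (0.79) with it, all named after their values were seen. The meiotic genes Sycp3 (from 16.1 ± 2.59 to 4.29 ± 0.358 CPM, log2 fold change -1.89), Sycp1 (-1.63) and Brdt (-1.16) had the smallest adjusted p among them. With GC correction Sycp3 remained called (-0.87) and Sycp1 (-0.59) and Brdt (-0.67) did not, though Brdt was called by the longest transcripts (-0.80). Sycp3 was not called in 2 of 20 alternatives.

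**Figure D5:**
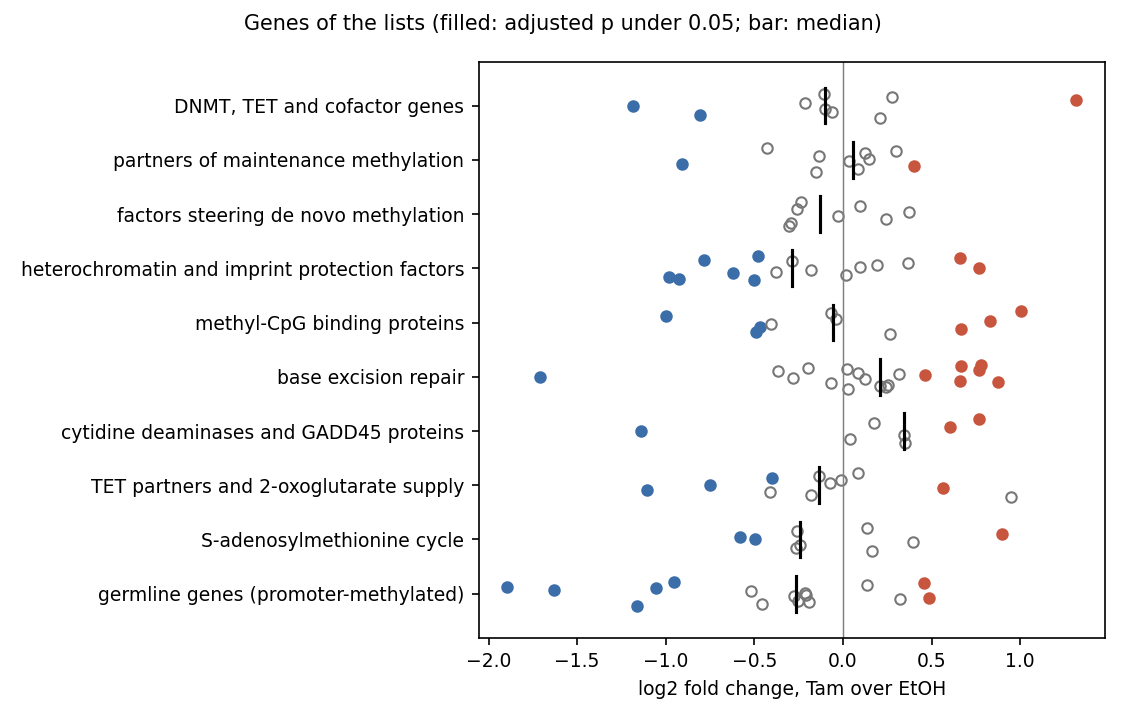
Log2 fold change (tamoxifen over ethanol) of each tested gene of the DNMT, TET and cofactor genes and of the 9 other lists, without GC correction, with filled points for adjusted p under 0.05 (red higher, blue lower), open points for the rest and a bar for the list's median. Most lists hold both red and blue points, and their medians lie between -0.29 and 0.35.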

How the data were processed

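RNA-seq counts of 4 libraries (2 ethanol, 2 tamoxifen, grouped by their titles) were used. The deposited values are counts of reads per gene symbol. The submitters' processing notes name the build mm9 and, as tools, Bowtie 1.1.1, HTSeq, DESeq2 and CASAVA 1.8.2. Not given in the sources used here are the annotation, the strand setting and the read length, so reads of overlapping genes cannot be told apart. Closing summary lines, such as reads assigned to no feature (35.0 to 51.7% per library), were left out.

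The whole table was fitted with edgeR 4.0.16 in R 4.3.3 (quasi-likelihood, robust, TMM, filterByExpr, group only; adjusted p under 0.05). The SE was obtained by dividing the size of the log2 fold change by the root of the F statistic. Alternatives were other scalings, filters and thresholds, DESeq2 1.42.0, limma voom 3.58.1, a replicate block, left-out libraries (the lone library is then assumed to vary like the other group) and GC correction, a loess trend (span 0.5, degree 1) of each library entered as an offset. GC content, length and shared 36-base stretches came from GENCODE transcripts of GRCm38, with 14395 of 14479 tested genes matched; 3 list genes were found under older symbols. Levels per kilobase use the longest transcript in place of the median length set out in the plan, which short transcript models distort. Promoter windows are from RefSeq.

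The genes, lists and rule for named genes (the 10 genes, Smarca4, the called genes with the smallest adjusted p, at most 3 a list, and Prdm14, Dppa3 and Trim28) were chosen with earlier results of these data known. The markers of other cells and the 5 stem cell markers given by name were chosen after their values were seen. The result of 1 gene of the lists is not reported here.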

Additional observations from a re-analysis of the deposited data

How the results depend on the processing

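Of 180 values of the 9 tested genes over 20 alternatives each, 158 kept their direction and their side of the threshold. Dnmt3a and Tet1 did so in every alternative and Tet3 in all but 1. Over all named genes 553 of 720 values did so, 128 kept their direction without the call and 26 turned. Of the 9 tested genes, directions turned only for some that had not passed. These were Dnmt1 with GC correction by longest transcript (-0.024) and corrected without ethanol replicate 1 (-0.065), Dnmt3b with total counts (0.062) and corrected without ethanol replicate 2 (0.034), Dnmt3l with total counts (0.024), Uhrf1 corrected without ethanol replicate 1 (-0.17), Zfp57 with total counts (0.021) and by longest transcript (0.21), and Tet2 with GC correction (0.18), with the block as well (0.20), by longest transcript (0.13) and corrected without ethanol replicate 1 (0.42), tamoxifen replicate 1 (0.12) and tamoxifen replicate 2 (0.23). With a library left out and no correction, Dnmt3b ranged from -0.23 to 0.14 (the latter without ethanol replicate 2), Tet2 from -0.40 to 0.019 (without ethanol replicate 1) and Dppa3 from -0.073 (without tamoxifen replicate 1) to 0.25. Among genes that had passed, Mbd3 turned with GC correction (-0.070), also with the block (-0.067), by longest transcript (-0.10) and without ethanol replicate 1 (-0.21) or tamoxifen replicate 2 (-0.20). Corrected values also turned for Hells (0.018) and Trim28 (-0.030) without ethanol replicate 2 and for Idh2 without ethanol replicate 1 (-0.019) or tamoxifen replicate 2 (-0.080).

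Genes called numbered 3119 higher and 3322 lower, 1428 and 1457 with GC correction, 1463 and 1445 by longest transcript and 1765 and 2041 at an adjusted p under 0.01. With a library left out they ranged from 1800 to 3598 higher and from 2055 to 3728 lower. Corrected, they were 1704 and 1875 without ethanol replicate 1, 1758 and 1877 without ethanol replicate 2, 405 and 569 without tamoxifen replicate 1 and 279 and 342 without tamoxifen replicate 2. Of the 9 tested enzymes and cofactors, 0 to 2 were higher and 2 to 3 lower with a library left out. Of the other pathway genes, 18 were higher and 22 lower, 10 and 7 with GC correction, 12 and 7 by longest transcript, 22 and 11 with the block and GC correction and 11 and 15 at an adjusted p under 0.01. With a library left out, 9 to 20 were higher and 15 to 26 lower, and corrected 13 and 10, 15 and 8, 1 and 4, and 2 and 2 in the order of libraries above. GC correction by median GC content moved the log2 change of the ratios to -0.89 (Dnmt3a to Dnmt3b), -1.29 (Tet1 to Tet2) and 0.58 (Tet3 to Tet2). The ratios were not corrected by the longest transcripts, where Tet1 alone was at -0.74 in place of -1.09. Leaving out a library gave ranges of -0.82 to -0.68, -1.1 to -0.88 and 1.38 to 1.64 in that order, -0.25 to 0.14 for Dnmt3l to Dnmt3b and -0.14 to 0.32 for Uhrf1 to Dnmt1. The cause of these moves was not tested.

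The groups share replicate numbers, and same-numbered libraries deviated together with a correlation of 0.234 across genes, but no label says that a number marks a shared culture. With the replicate number as a block 3919 genes were higher and 4168 lower, and of the 9 genes 2 were higher (Uhrf1 at 0.30 was added) and 2 lower. With at most 7 reads a library, a change of Tdg was not detectable in these counts.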
